A study of Mus musculus with 7 samples.

Results

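Integrins are paired α and β chains on the cell surface that bind counter-receptors on other cells and proteins of the matrix. On leukocytes they rest in a bent, low-affinity state and are switched on from inside the cell, when the small GTPase RAP1 recruits talin and kindlin to the short tail of the β chain. In T cells the kinase MST1 acts in this route downstream of RAP1 through its partner RAPL, and it is known for moving LFA-1 (αL with β2) to the contact with another cell. The 10 genes described here encode 3 α chains (Itgal, Itga4 and Itga6), 3 β chains (Itgb2, Itgb1 and Itgb7), the activators talin 1 (Tln1), kindlin-3 (Fermt3) and RAP1B (Rap1b), and the LFA-1 ligand ICAM-1 (Icam1). They were taken by name, as a named set of leukocyte integrin chains and activators, from a table of 54532 genes, and all 10 were found and passed the filter on low counts.

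The libraries are bulk RNA sequencing of mouse spleen material labelled as sorted follicular helper T (Tfh) cells, which support B cells during the germinal centre response. The 4 knockout (KO) libraries carry the genotype Mst1 knockout, written Mst1∆CD4 in their titles, which is how a deletion driven in CD4-expressing cells is usually abbreviated. The 3 wild-type (WT) libraries are labelled WT. All animals of both groups were sensitised with ovalbumin given intraperitoneally, and no other treatment is named. The age and strain of the mice, the Cre line and the sorting gate are not given in the sources used here. Each library is called a biological replicate, but no label ties it to a particular mouse.

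Totals ran from 16789158 to 18375275 counts per library. KO replicate 4 stood apart from the other KO libraries, with a chi-square per degree of freedom of 39.99 to 59.65 against each of them, where the other pairs of KO or of WT libraries were at 19.47 to 28.9. Stk4, which encodes MST1, had 287, 296, 302 and 287 CPM (counts scaled to a common library size) in the KO libraries and 328, 316 and 336 CPM in the WT libraries. All KO values lay below the WT values, by little, and the gene did not pass the test (log2 fold change -0.16, edgeR adjusted p = 0.225). The deleted exons are not given in the sources used here, and the count is a sum over all cells in a library. A count over the whole gene therefore could not check the genotype. Markers of several cell types were present in every library, and their summed levels moved with genotype. The sum of 10 T cell markers, with Cd3e, Cd4 and Icos among them, was 137.5 to 284.4 CPM in the KO libraries and 489.0 to 798.5 CPM in the WT libraries, and 9 of the 10 were lower in KO (edgeR adjusted p under 0.05). The 10 B cell markers summed to 1610 to 3855 CPM in KO and 4701 to 6230 CPM in WT libraries, with 3 of 10 lower. Neutrophil markers summed to 8922 to 13570 CPM in KO and 14300 to 17680 CPM in WT libraries, with 4 of 10 lower. This sum was mostly S100a8, S100a9, Ngp, Ltf and Camp, while Mpo, Elane, Retnlg and Cxcr2 had higher means in KO and did not pass. Erythroid markers summed to 717.2 to 1642 CPM in KO and 138.1 to 188.6 CPM in WT libraries, with 10 of 10 higher. None of the markers of these 4 lists was at 0 in all libraries. In every library the T cell sum was far below the B cell and the neutrophil sums, though sums of different genes do not give shares of cells. The libraries thus held abundant transcripts that mark cells other than the labelled type, and in bulk RNA fewer cells of a type and less RNA per cell cannot be told apart. Itgal, Itgb2, Tln1, Fermt3 and Rap1b are used by nearly all leukocytes, so their values are sums over these cells.

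The chains differ in sequence, and the stretches that the activation route acts on are shown because each kind of chain has its own. The α chains have a conserved glycine-phenylalanine-phenylalanine-lysine-arginine motif just inside the membrane, which holds the resting pair closed. Its 15 coding bases are in capitals below, read 5′ to 3′ from GENCODE M21 transcripts on GRCm38.
Itgal (exons 30 and 31, chr7:127330228-127333484, plus strand): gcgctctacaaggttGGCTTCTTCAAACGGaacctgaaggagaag
Itga4 (exons 27 and 28, chr2:79325683-79326552, plus strand): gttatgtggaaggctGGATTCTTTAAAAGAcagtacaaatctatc
Itga6 (exons 24 and 25, chr2:71849495-71853566, plus strand): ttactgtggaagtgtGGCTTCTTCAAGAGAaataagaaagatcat
In each of the 3 genes the printed 45 coding bases cross an exon junction, so the interval holds an intron.

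The β chains end in a tail with a pair of asparagine-proline-X-tyrosine (or phenylalanine) motifs, of which the membrane-proximal copy binds talin and the distal copy binds kindlin. The 12 coding bases of each motif are in capitals.
Itgb1 (exon 16, chr8:128732023-128732082, plus strand): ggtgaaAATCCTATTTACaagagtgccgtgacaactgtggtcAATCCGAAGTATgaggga
Itgb2 (exons 15 and 16, chr10:77564802-77565234, plus strand): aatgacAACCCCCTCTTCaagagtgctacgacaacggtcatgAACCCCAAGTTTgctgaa
Itgb7 (exon 15, chr15:102216208-102216267, minus strand): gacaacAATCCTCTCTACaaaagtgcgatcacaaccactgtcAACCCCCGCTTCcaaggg
The motifs are separated by 24 coding bases in all 3 genes. They differ in what follows, with 51 coding bases after the distal motif in Itgb7 and 9 in Itgb1 and in Itgb2.

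Itga6 was the 1 gene of the 10 that passed the test, and it was lower in KO. It encodes the α6 chain, which pairs with β1 or β4 and binds laminins (ENSMUSG00000027111, GRCm38 chromosome 2, 71745616 to 71858416, plus strand). It stood at 18.6, 14.4, 17.5 and 14.5 CPM in KO replicates 1 to 4, against 34.8, 31.5 and 38.1 CPM in WT replicates 1 to 3. Every KO library lay below every WT library, and the highest KO value was well under the lowest WT value. The means were 16.2 ± 2.10 CPM in KO (SD, n = 4) and 34.8 ± 3.33 CPM in WT libraries (n = 3), a log2 fold change of -1.10 (SE 0.13, edgeR adjusted p = 0.00168). The fold of 0.467 had a 95% interval from 0.380 to 0.574. A two-sided exact permutation test on CPM gave p = 0.0286, the smallest the 35 splits allow. The values rest on 259 to 314 counts in each KO library and 542 to 674 in each WT library. The call held without any of the 7 libraries in turn, with log2 fold changes from -1.17 to -1.03. The T cell, B cell, neutrophil, and stroma and endothelium marker sums were also lower in every KO library than in any WT library. The last was 308.3 to 647.5 CPM in KO and 660.9 to 734.1 CPM in WT libraries, and without Cr2, which the B cell list also holds, 93.9 to 148 CPM in KO and 151 to 174 CPM in WT libraries. The erythroid and the megakaryocyte and platelet sums went the other way, higher in every KO library than in any WT library. The megakaryocyte and platelet sum was 38.96 to 51.7 CPM in KO and 24.52 to 33.33 CPM in WT libraries. The part of any of these sums in the Itga6 difference was not tested. The 4 gene models that overlap Itga6 had 0 counts in all libraries. Among them Gm13663 and Gm13662 lie on the same strand as Itga6. How reads over shared bases were counted is not stated, so 0 counts need not mean that these models gave no reads.

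**Figure D1:**
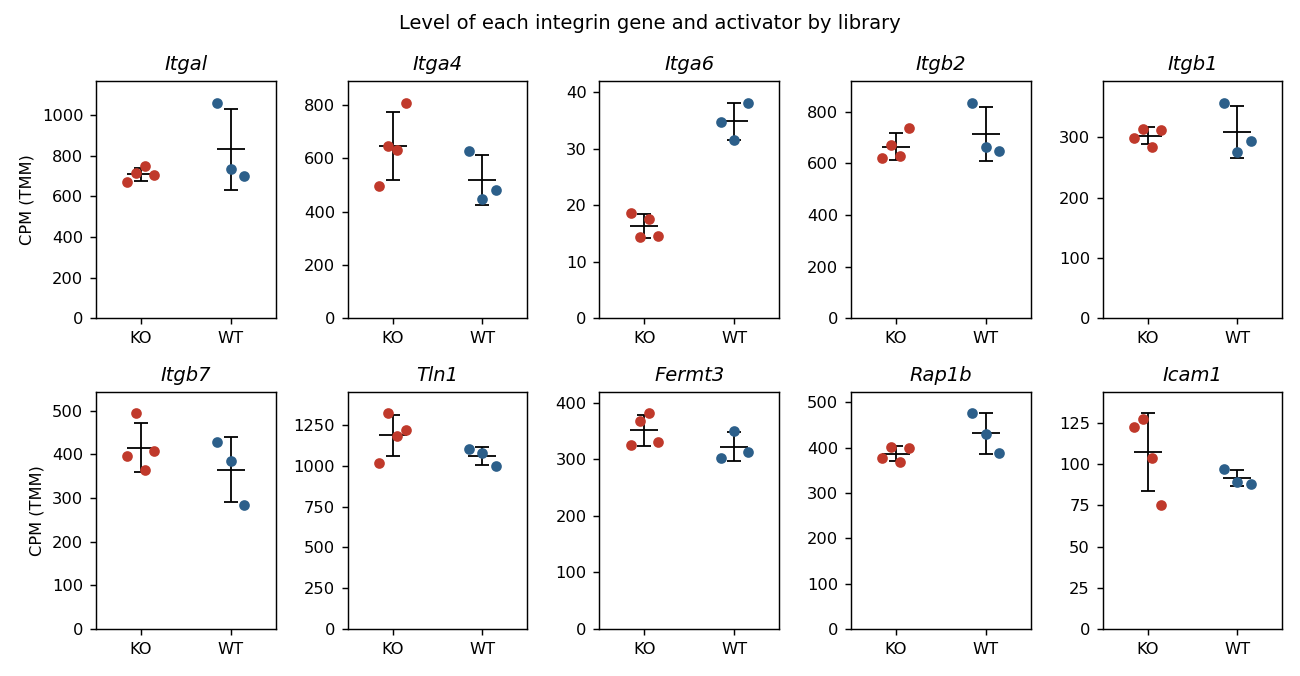
Level of each of the 10 genes in CPM (vertical axes, from 0), with points for the 4 KO and 3 WT libraries and bars for the mean and SD. The groups are separate for Itga6, at 14.4 to 18.6 CPM in KO and 31.5 to 38.1 CPM in WT libraries, and overlap for the other 9.

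The other 9 genes did not pass the test, and their groups overlapped. So 1 of the 10 genes was called, and called lower, where 15.5% of the 15795 tested genes were called 6.83% were called lower and 8.71% were called higher. At an unadjusted p under 0.05 there was also 1 of the 10, where 31.8% of tested genes stood. Groups without overlap were found for 1 of the 10 and for 30.0% of tested genes. The median log2 fold change of the 10 was 0.05, that of all tested genes was -0.002, and 5 of the 10 lay on each side of 0. No 95% interval of the 9 reached 1 log2 unit in either direction, with the lowest bound at -0.57 for Itgal and the highest at 0.72 for Itga4. In the authors' deposited table, whose sides are named only by codes, Itga6 had an adjusted p of 2.55e-10 and the other 9 had values from 0.272 to 0.906, where 20.3% of the genes tested here were under 0.05 there. The count of 2455 called genes changed when 1 library was left out. It was 2243, 1384, 2553 and 2203 without KO replicates 1 to 4 in turn, and 1326, 1050 and 1161 without WT replicates 1 to 3. Each such fit has fewer libraries, and the part of that in these counts was not tested.

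**Figure D2:**
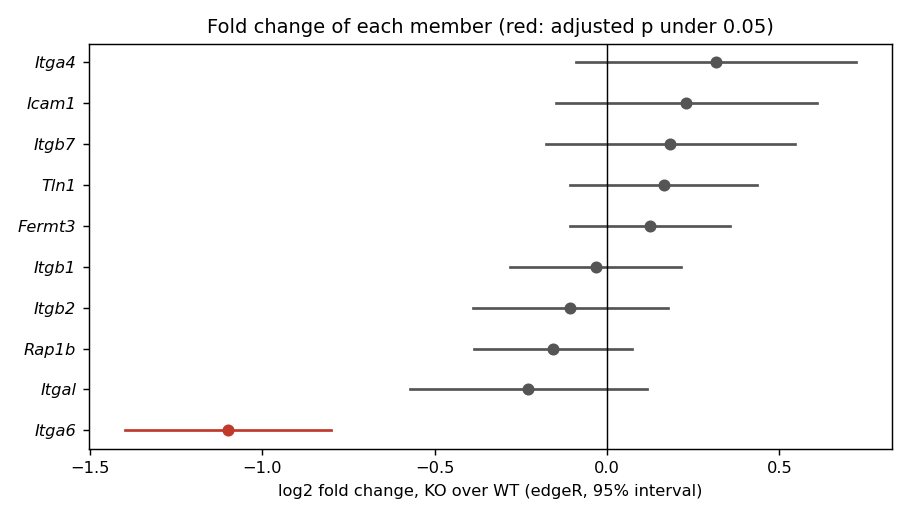
Log2 fold change of each gene, KO over WT (horizontal axis), with its 95% interval as a line and the called gene in red. The interval of Itga6 runs from -1.40 to -0.80 and the intervals of the other 9 genes include 0.

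The α chain genes Itgal and Itga4 did not pass. Itgal encodes αL, the chain that makes LFA-1 with β2 (chromosome 7, 127296260 to 127335138). It stood at 671, 716, 748 and 705 CPM in the KO libraries and at 1062, 733 and 701 CPM in the WT libraries. WT replicate 1 was far above the other 6 libraries, which lay within a narrow band. The log2 fold change was -0.23 (SE 0.15, adjusted p = 0.343), and without WT replicate 1 it was -0.01. Itga4 encodes α4, which binds VCAM-1 when paired with β1 and MAdCAM-1 when paired with β7 (chromosome 2, 79255426 to 79333123). It stood at 497, 646, 632 and 809 CPM in KO and 626, 447 and 483 CPM in WT libraries. KO replicate 4 was the highest library and WT replicate 2 the lowest, and WT replicate 1 lay among the KO values. The log2 fold change was 0.32 (SE 0.18, adjusted p = 0.267), with a 95% interval from -0.09 to 0.72. KO replicate 4 also had the highest erythroid sum, at 1642 CPM, and the lowest T cell sum, at 137.5 CPM; the part of either in its Itga4 level was not tested.

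None of the 3 β chain genes passed. Itgb2, the common chain of the leukocyte integrins (chromosome 10, 77530252 to 77565708), stood at 619, 671, 629 and 735 CPM in KO and 835, 662 and 646 CPM in WT libraries. WT replicate 1 was again the highest, and the other libraries of the groups were interleaved. Its log2 fold change was -0.11 (SE 0.13, adjusted p = 0.605), and 0.02 without WT replicate 1. Itgb1, the partner of many α chains (chromosome 8, 128685654 to 128733200), had 299, 314, 284 and 312 CPM in KO and 358, 276 and 295 CPM in WT libraries. Its means of 302 ± 14.1 CPM in KO (n = 4) and 309 ± 42.8 CPM in WT libraries (n = 3) were the closest of the 10 genes, with a log2 fold change of -0.03 (95% interval -0.28 to 0.22) that was 0.08 without WT replicate 1. Itgb7, the chain of the gut-homing integrin α4β7 (chromosome 15, 102215995 to 102231944), had 395, 494, 363 and 407 CPM in KO and 427, 385 and 283 CPM in WT libraries. KO replicate 2 was the highest and WT replicate 3 the lowest, with the rest mixed, and the log2 fold change was 0.18 (SE 0.16, adjusted p = 0.476). It was 0.09 without KO replicate 2, 0.31 without WT replicate 1 and 0.03 without WT replicate 3.

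None of the 3 activator genes passed. Talin 1 links the β tail to actin and is the last step of activation (chromosome 4, 43531519 to 43562691). Tln1 stood at 1020, 1322, 1185 and 1219 CPM in KO and 1103, 1075 and 999 CPM in WT libraries. The highest 3 values were KO libraries, but KO replicate 1 lay below WT replicates 1 and 2, and the test was not passed (log2 fold change 0.16, SE 0.12, adjusted p = 0.391). Fermt3 encodes kindlin-3, the kindlin of blood cells (chromosome 19, 6998958 to 7019469), and stood at 325, 368, 381 and 331 CPM in KO and 302, 351 and 314 CPM in WT libraries. Its groups overlapped through WT replicate 2, and its log2 fold change was 0.12 (SE 0.10, adjusted p = 0.453). Rap1b encodes the main RAP1 isoform of blood cells (chromosome 10, 117813871 to 117846035). It had 378, 401, 369 and 399 CPM in KO and 476, 431 and 387 CPM in WT libraries. All but WT replicate 3 of the WT libraries lay above the KO range, and the log2 fold change was -0.16 (SE 0.10, adjusted p = 0.329), or -0.08 without WT replicate 1. The paralog Rap1a, which encodes a closely similar protein, averaged 166 ± 17.2 CPM in KO and 187 ± 25.6 CPM in WT libraries with a log2 fold change of -0.17 (adjusted p = 0.383), and how shared reads were divided is not stated. Genes on the opposite strand overlap Tln1 (Creb3, at most 770 counts in a library), Fermt3 (Trpt1, at most 102), Itga4 (Cerkl, at most 44) and Icam1 (Gm47079, at most 7), and with the strand setting unknown their reads cannot be told apart from those of the members.

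Icam1 encodes the ligand of LFA-1 on antigen-presenting and endothelial cells (chromosome 9, 21015985 to 21028817). It stood at 123, 127, 104 and 75.4 CPM in KO and 97.1, 89.4 and 88.1 CPM in WT libraries. KO replicates 1 to 3 lay above every WT library, and KO replicate 4 below every WT library. With all libraries the log2 fold change was 0.23 (SE 0.17, adjusted p = 0.389). Without KO replicate 4 it was 0.37 with an adjusted p of 0.0436, so Icam1 was then called higher in KO. Over all alternatives its adjusted p ran from 0.0436 to 0.657. KO replicate 4 had the lowest B cell marker sum of the 7 libraries, at 1610 CPM, and the part of this in its Icam1 level was not tested.

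To compare genes with each other, levels per length were taken as the deposited FPKM (fragments counted per unit of gene length and of sequencing depth). Itgb2 had the highest level in both groups, with 215 ± 16.0 FPKM in KO (SD, n = 4) and 232 ± 32.9 FPKM in WT libraries (n = 3), and its range did not overlap that of the next gene in either. In KO libraries Itgb7, Fermt3, Rap1b, Tln1 and Itgal followed at means of 148, 134, 133, 119.9 and 107 FPKM, and each overlapped its neighbour. In WT libraries the order was Rap1b, Itgb7, Itgal, Fermt3 and Tln1 at 148, 130.4, 125, 123 and 107 FPKM, again with overlapping neighbours except Fermt3 and Tln1. Below them, Itgb1, Itga4, Icam1 and Itga6 kept the same order in both groups, with no overlap between neighbours. Itgb1 averaged 73.3 FPKM in KO and 75.0 FPKM in WT libraries, Itga4 45.7 FPKM in KO and 36.7 FPKM in WT libraries, and Icam1 24.4 FPKM in KO and 20.8 FPKM in WT libraries. Itga6 was far below the rest, at 1.78 ± 0.24 FPKM in KO and 3.82 ± 0.37 FPKM in WT libraries, so the gene that changed was the least abundant of the 10.

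**Figure D3:**
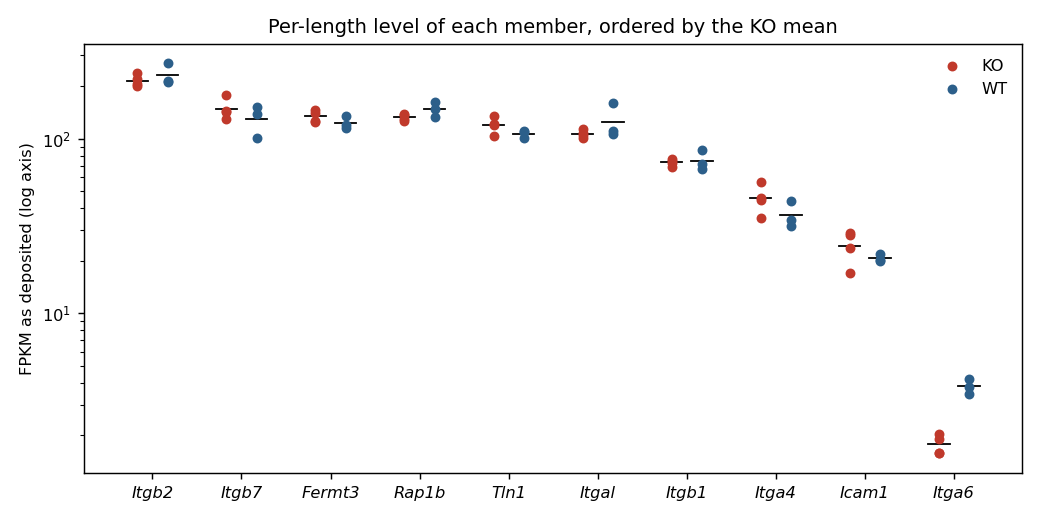
Deposited FPKM of each gene on a log axis, with a point for each KO (red) and WT (blue) library and a line at each group's mean. Genes run from Itgb2, at 202 to 237 FPKM in KO libraries, to Itga6, at 1.58 to 2.04 FPKM in KO and 3.46 to 4.20 FPKM in WT libraries.

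Ratios of chains within a library do not depend on scaling between libraries. The Itga6 to Itgb1 ratio per length was 0.0280, 0.0207, 0.0279 and 0.0211 in KO and 0.0440, 0.0516 and 0.0585 in WT libraries. All KO ratios were lower, by 1.08 log2 units on average (KO minus WT -1.08, exact permutation p = 0.0286). This is the smallest p that the 35 splits allow, and over the 5 ratios compared the adjusted p was 0.143. With no other ratio at the smallest p it could not be lower, so the adjusted p decides nothing about this ratio. The log2 fold change of Itgb1 was -0.03, so the ratio repeats the Itga6 difference of -1.10 from the same counts and is not a separate result. The Itga4 to Itgb1 ratio was 0.485, 0.600, 0.650 and 0.758 in KO and 0.512, 0.474 and 0.478 in WT libraries, where KO replicate 1 lay within the WT range (difference 0.34 log2 units, exact permutation p = 0.0857, adjusted p = 0.214). The LFA-1 ratio, Itgal to Itgb2, averaged 0.499 ± 0.044 in KO and 0.537 ± 0.048 in WT libraries (exact permutation p = 0.314, adjusted p = 0.393). The Itga4 to Itgb7 ratio averaged 0.312 ± 0.070 in KO and 0.286 ± 0.054 in WT libraries (exact permutation p = 0.686, adjusted p = 0.686). The Itgb7 to Itgb1 ratio averaged 2.02 ± 0.20 in KO and 1.74 ± 0.32 in WT libraries (exact permutation p = 0.2, adjusted p = 0.333).

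The place of each α chain among those that can share its β chain was described from FPKM, a summary chosen after the values were seen and given with no test. Among the 4 partners of β2, Itgal made up 74.6, 77.9, 73.6 and 78.6% of the summed FPKM in KO and 75.7, 67.7 and 71.3% in WT libraries. Between the α partners of β7, Itga4 made up 86.6, 88.0, 91.0 and 92.1% in KO and 93.6, 92.4 and 94.6% in WT libraries, and the rest was Itgae, the αE chain of mucosal T cells and some dendritic cells. Among the 12 partners of β1, Itga4 held 61.6 ± 3.39% in KO and 62.0 ± 2.08% in WT libraries. Around it, Itga6 made up 2.48 ± 0.66% in KO and 6.53 ± 0.95% in WT libraries, and Itga5, the α5 chain of the fibronectin receptor, 21.1 ± 0.96% in KO and 14.4 ± 1.44% in WT libraries. These are shares of transcripts and not of assembled pairs.

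**Figure D4:**
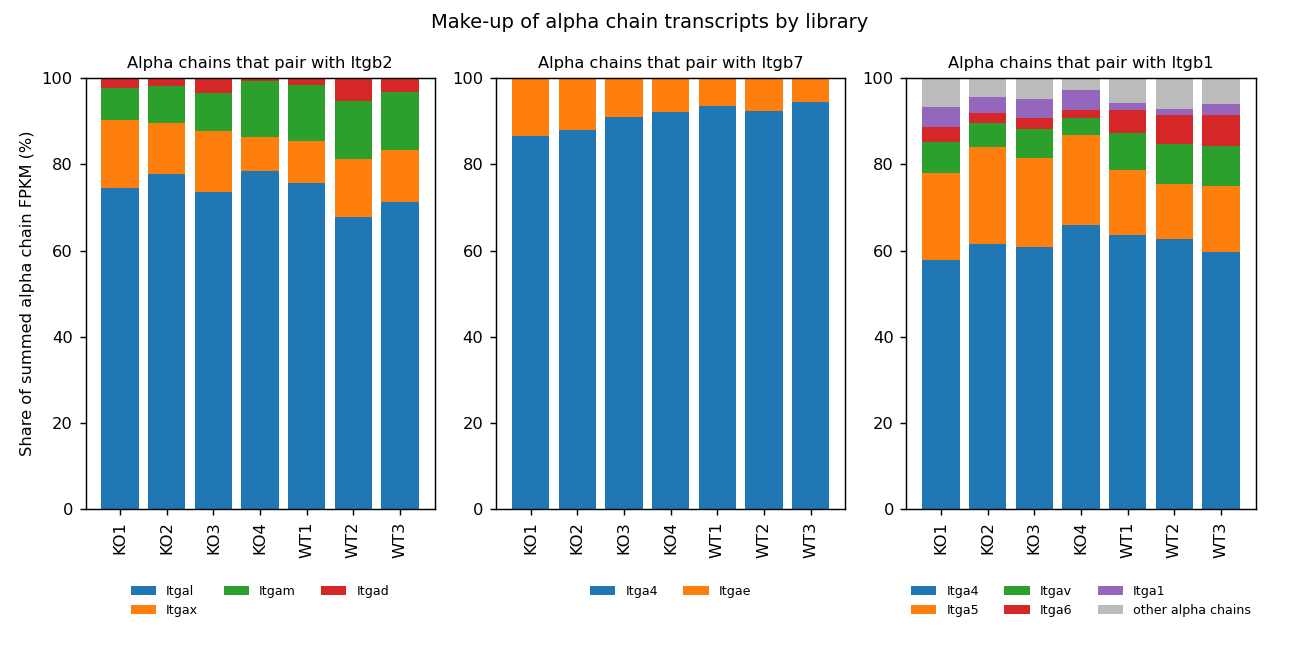
Share of the summed α chain FPKM (vertical axis, percent) held by each α chain that can pair with β2, β7 or β1, in each library from KO1 to WT3. Itgal holds 67.7 to 78.6% of the β2 partners, and Itga6 (red) holds 1.83 to 3.34% of the β1 partners in KO and 5.47 to 7.30% in WT libraries.

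Likeness to other genes was measured as the root mean square difference of centred log2 CPM over the 7 libraries, among 9185 genes with a mean of at least 10 CPM. Antigen receptor segments, predicted gene models and pseudogenes were left out. The 3 genes nearest to Itga6 were Prkca, which encodes protein kinase C alpha, at 0.090, St6gal1, a sialyltransferase of B cells and liver, at 0.123, and the corepressor gene Tle1 at 0.135. Their log2 fold changes were -1.19, -1.15 and -0.94. The measure holds the difference between KO and WT libraries, so fold changes near that of Itga6 follow from how these genes were picked. Nearest to Itgal were Hip1, Nfe2l2 and Tnfrsf1b, at 0.090 to 0.097. Nearest to Itga4 were Stard8, Dusp3 and Ext1, at 0.060 to 0.075. Nearest to Itgb2 were Wdr70, Zcchc10 and Taok3, to Itgb1 Znfx1, Cap1 and Gsk3b, and to Itgb7 Tax1bp3, Sertad3 and Slc33a1, at 0.010 to 0.081. Nearest to Tln1 were Dolpp1, Nkiras2 and Slc30a9, to Fermt3 Pithd1, Polr1a and Retreg2, to Rap1b Agpat1, Celf2 and Ubqln1, and to Icam1 Acy1, Uba7 and Tapbp, at 0.029 to 0.120. Among the 10 themselves, the closest were Itgb2 with Itgb1 at 0.074 and Itgb2 with Rap1b at 0.075.

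The 10 genes were set in a wider list of 101 integrin chains, activators, MST1-linked kinases and ligands, of which 90 were tested, 10 rose, 12 fell and 68 did not pass. The share called was 24.4% in the list and 15.5% over all tested genes, of which 8.71% were higher and 6.83% lower in KO. This difference in shares was not tested, and its size depended on the method. With edgeR 22 genes of the list and 2455 of all tested genes were called. On the same genes limma-voom called 26 and 3870, and DESeq2 25 and 3388, so the gap was smaller with either. The median log2 fold change of the list was -0.06 against -0.002 for all tested genes. The 22 calls were 14 without KO replicate 2, 10 without WT replicate 2 and 13 without WT replicate 3. Of the 80 tested genes outside the 10 members, 10 rose and 11 fell.

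Among 17 tested α chains, 4 rose and 3 fell, Itga6 included, or 41.2% called, where 15.5% of all tested genes were. Itga1, a collagen receptor chain, averaged 61.2 ± 10.5 CPM in KO and 19.9 ± 7.05 CPM in WT libraries, a rise of 1.62 log2 units (SE 0.25, adjusted p = 0.00502). Itgae rose by 1.06 (adjusted p = 0.00725), to 24.3 ± 3.55 CPM in KO against 11.7 ± 2.51 CPM in WT libraries. Itga5 rose by 0.86 (adjusted p = 0.0172), a call that was lost without WT replicate 2 (adjusted p = 0.0501) and without WT replicate 3 (0.0602). Marker sums of several cell types differed between the groups, and their part in the Itga1, Itgae and Itga5 rises was not tested. Itga2b, the platelet chain αIIb and itself a marker of megakaryocytes, rose by 0.77 (adjusted p = 0.0283), which was lost without KO replicate 2 or any 1 WT library (adjusted p = 0.0685 to 0.0948). The other 7 megakaryocyte and platelet markers summed to 20.98 to 27.33 CPM in KO and 11.04 to 20.15 CPM in WT libraries, and their part in this was not tested. Itga7, a laminin receptor chain of muscle, fell by 2.09 (adjusted p = 0.0104) on only 34 counts in all KO libraries and 106 in all WT libraries. Itgam, the αM chain of neutrophils and monocytes, fell by 0.80 (adjusted p = 0.0254), and the call was lost without KO replicate 2, WT replicate 1 or WT replicate 2 (adjusted p = 0.0668 to 0.0790). Beside it the neutrophil markers were mixed in direction, and the monocyte and macrophage sum was 7085 to 11750 CPM in KO and 4940 to 8336 CPM in WT libraries; their part was not tested.

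Among 7 tested β chains, 2 fell and none rose, or 28.6% called against 15.5% of all tested genes. Itgb8, a chain that activates TGF-β, fell by 2.42 (adjusted p = 0.0150) on 42 counts in all KO libraries and 164 in all WT libraries, and the call was lost without WT replicate 2 (adjusted p = 0.0610). Itgb3, the partner of αIIb and αV, fell by 0.58 (adjusted p = 0.0249), to 30.1 ± 4.80 CPM in KO against 45.2 ± 5.07 CPM in WT libraries. That call was lost without KO replicate 2 and without each WT library (adjusted p = 0.0573 to 0.105). The β4 chain gene Itgb4, the other partner of α6, averaged 0.0643 FPKM in KO and 0.0935 FPKM in WT libraries, far below the per-length level of Itgb1.

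Of 16 tested talins, kindlins and tail adaptors, 2 rose and none fell, and this share of 12.5% was near the 15.5% of all tested genes. Tln2, the second talin, had 5.08, 10.6, 7.51 and 14.9 CPM in KO and 1.34, 1.34 and 1.36 CPM in WT libraries, with every KO library higher (log2 fold change 2.82, SE 0.38, adjusted p = 0.00262). Per length it stayed low beside Tln1, at 0.514 FPKM in KO and 0.0725 FPKM in WT libraries. Parvb, which encodes β-parvin of the complex with integrin-linked kinase, rose by 1.71 (adjusted p = 0.00168), to 37.4 ± 7.66 CPM in KO against 11.4 ± 2.48 CPM in WT libraries. The erythroid sum was higher in the same libraries, and its part in these rises was not tested.

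The RAP1 group of 25 tested genes had 4 that fell and 2 that rose, or 24% called against 15.5% of all tested genes. Rasgrp2, which encodes CalDAG-GEFI, an exchange factor that loads RAP1, averaged 252 ± 35.3 CPM in KO and 420 ± 30.5 CPM in WT libraries, a log2 fold change of -0.73 (SE 0.12, adjusted p = 0.00672). Rasgrp3, an exchange factor of B cells, fell by 0.90 (adjusted p = 0.0243), a call that was lost without KO replicate 2 or any 1 WT library (adjusted p = 0.0598 to 0.0885) and with no filter on low counts (0.0512). Skap1, an adaptor of the T cell receptor route to RAP1, fell by 1.36 (adjusted p = 0.00589), to 9.88 ± 2.16 CPM in KO against 25.3 ± 6.83 CPM in WT libraries. Sipa1l1, a gene of the RAP GTPase-activating family, fell by 0.51 (adjusted p = 0.00816). Rap2a rose by 0.58 (adjusted p = 0.0231), which was lost without KO replicate 2, WT replicate 2 or WT replicate 3 (adjusted p = 0.0597 to 0.0835). Skap2, the paralog of Skap1 expressed in myeloid cells, rose by 0.56 (adjusted p = 0.0364), which was lost without any 1 library except KO replicate 3 (adjusted p = 0.0530 to 0.125). Rassf5, which encodes the MST1 partner RAPL, did not pass (log2 fold change -0.19, adjusted p = 0.230), nor did Apbb1ip, which encodes the talin recruiter RIAM (-0.02, adjusted p = 0.949). T and B cell marker sums were lower in the same libraries as Skap1 and Rasgrp3, and their part was not tested.

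**Figure D5:**
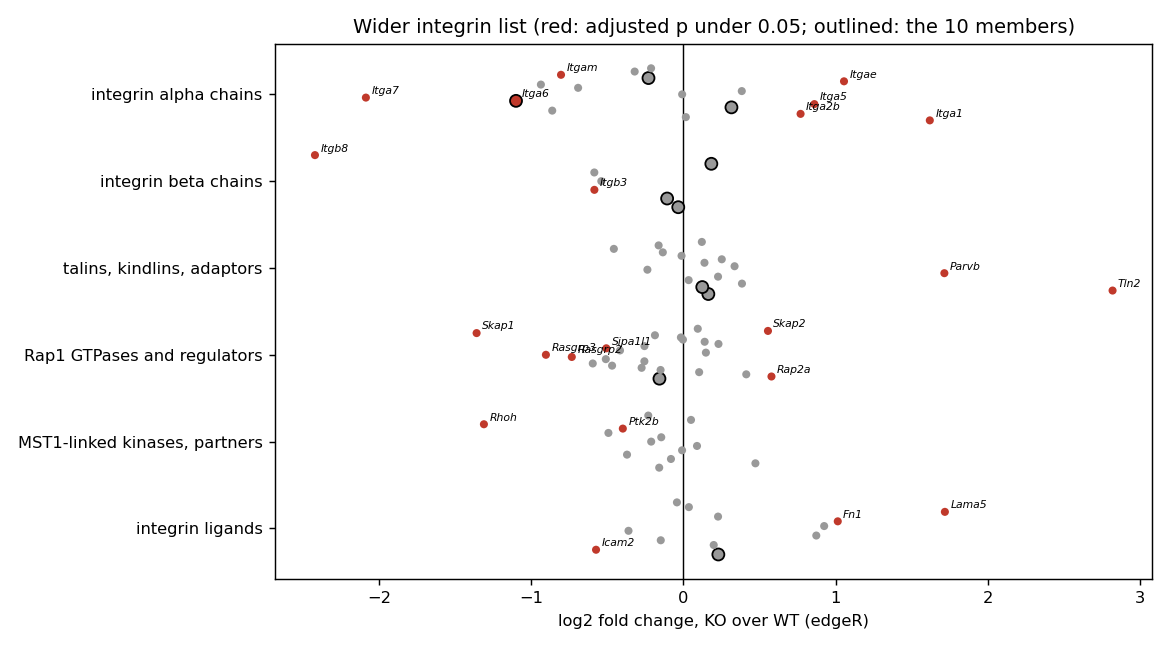
Log2 fold change, KO over WT (horizontal axis), of the 90 tested genes of the wider list in 6 groups, with called genes in red and named and the 10 members outlined. Itga6 at -1.10 is the only outlined gene in red, among 10 called genes on the right and 12 on the left.

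Of 13 tested MST1-linked kinases and cytoskeletal partners, 2 fell and none rose, a share of 15.4% beside 15.5% of all tested genes. Rhoh, a GTPase gene of lymphocytes, averaged 48.1 ± 8.30 CPM in KO and 119 ± 8.44 CPM in WT libraries, a log2 fold change of -1.31 (SE 0.14, adjusted p = 0.0010). Ptk2b, which encodes the focal adhesion kinase PYK2, fell by 0.40 (adjusted p = 0.0400), which was lost without any 1 library except KO replicate 3 (adjusted p = 0.0660 to 0.123) and with total counts as the scaling (0.0701). Of 12 tested ligand genes, 2 rose and 1 fell, or 25.0% called against 15.5% of all tested genes. Fn1, which encodes fibronectin, the ligand of α4β1 and α5β1, rose by 1.01 (adjusted p = 0.0270), to 1309 ± 419 CPM in KO against 648 ± 92.3 CPM in WT libraries. The Fn1 call was lost without KO replicate 2 or any 1 WT library (adjusted p = 0.0583 to 0.101) and with no filter on low counts (0.0504). Lama5, a chain of laminins, which α6 binds, rose by 1.72 (adjusted p = 0.0283), with 4.58 ± 2.63 CPM in KO and 1.39 ± 0.27 CPM in WT libraries, and was lost without KO replicate 2 or any 1 WT library (adjusted p = 0.0527 to 0.105). Icam2, a further LFA-1 ligand, fell by 0.57 (adjusted p = 0.0106), to 32.6 ± 3.61 CPM in KO against 48.5 ± 2.55 CPM in WT libraries, and lost its call without WT replicate 2 (adjusted p = 0.0543). Vcam1, the ligand of α4β1, averaged 103 ± 56.2 CPM in KO and 114 ± 66.2 CPM in WT libraries and did not pass (adjusted p = 0.896). T and B cell marker sums were lower and the erythroid sum was higher in the same KO libraries. The part of these and other marker sums in the Rhoh, Ptk2b, Fn1, Lama5 and Icam2 differences was not tested.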

How the data were processed

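RNA was purified on RNeasy columns and made into NEBNext Ultra libraries, per the labels' protocols. The deposited table holds whole-number counts and FPKM per gene, per the file headers. GRCm38 (mm10) is the build named in the submitters' processing notes. Aligner, counter and strand setting are not given in the sources used here. FPKM was the count over the deposited gene length and a constant for each library. The log2 fold changes and adjusted p-values of the authors' deposited table come from a test that is not stated.

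Counts were fitted with edgeR 4.0.16 in R 4.3.3 (TMM, filterByExpr, robust quasi-likelihood test on genotype), with Benjamini-Hochberg adjustment over 15795 genes and calls at 0.05. CPM are TMM-scaled. Counts per member and library ran from 259 to 23756. P-values measure the spread between these libraries, which may be technical. Alternatives were DESeq2 1.42.0, limma-voom (limma 3.58.1), other scalings and filters, no robust step, a replicate block and leaving out each library. No replicate pair agreed within sampling noise (chi-square per degree of freedom 19.47 to 59.65).

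Members, lists and naming rules were chosen with earlier results of these data known. The rule named all members, each called gene of a sub-list (up to 8) and the 3 genes most like each member. Rap1a, Rassf5, Apbb1ip, Stk4, Itgb4 and Vcam1, and the genes of the closing section, were named after their values were seen.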

Additional observations from a re-analysis of the deposited data

Results flagged for a closer look

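The Itgb7 to Itgb1 ratio of KO replicate 2, at 1.21 log2 units, stood apart from the other KO libraries, which lay between 0.92 and 0.96. Its gap to the nearest of them was 0.852 of the whole range of the group, above the 95% critical value of Dixon's test for 4 samples, which chance passes in about 1 of 20 groups. The rule was run on the KO values of all 10 members and all 5 ratios, and only this ratio passed. A single pass among that many groups is not beyond what chance could give. KO replicate 2 had the highest Itgb7 level of the 7 libraries, at 494 CPM.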

How the results depend on the processing

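The log2 fold change of Itga6 kept its call under all 16 alternatives (-1.18 to -1.03, adjusted p at most 0.0118), and Itgal, Itga4, Itgb7, Fermt3, Tln1 and Rap1b kept direction and did not pass in any. The cause of the changes below was not tested. With limma-voom, 3870 genes were called, 1840 of them lower in KO. Leaving out 1 library gave 1050 to 2553 calls (639 to 1415 higher, 411 to 1138 lower), 1 or 2 called members, and 10 to 24 calls of the wider list (4 to 10 higher, 6 to 14 lower). The replicate block called 2 members, adding Icam1 at 0.36 (adjusted p = 0.0469), and of the named genes it lost Itga5 (0.0806), Itgb3 (0.0645), Skap2 (0.0602) and Ptk2b (0.0903). Replicate number 4 exists only in KO, so in this fit KO replicate 4 adds nothing to the genotype contrast. For Icam1 it is therefore not separate from the fit without KO replicate 4 (0.37, edgeR adjusted p = 0.0436). Deviations of same-numbered libraries correlated at -0.05, 0.03 and 0.16, and not every library correlated best with its own number, so the numbers were not taken to pair samples. Icam1 ran from 0.14 to 0.37 when a library was left out. Without WT replicate 1, Itgb2 turned to 0.0201 and Itgb1 to 0.0834 (leave-one-out ranges -0.17 to 0.02 and -0.11 to 0.08). The Itga4 to Itgb7 ratio difference turned to -0.0073 without KO replicate 4 and -0.0346 without WT replicate 2 (range -0.03 to 0.24). The other 4 ratios kept their direction and none passed after adjustment, but Itgb7 to Itgb1 was 0.08 without WT replicate 3 (0.22 with all) and 0.35 without WT replicate 2, and Itgal to Itgb2 was -0.03 without WT replicate 1 and -0.05 without KO replicate 4 (-0.10 with all). Leaving out 1 library also gave 0.19 to 0.47 for Itga4, 0.08 to 0.19 for Fermt3, 0.11 to 0.23 for Tln1 and -0.23 to -0.08 for Rap1b. With fewer libraries no exact test could pass. With all 7 libraries a lone ratio at the smallest exact permutation p, 0.0286, could not pass after adjustment over the 5 ratios. Of the 21 named genes of the wider list outside the members, 9 kept their call throughout.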

Other observations

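Some genes of the integrin family were not detected, or nearly so, at this depth. Itgb6, Fermt1 and Icam4 had 0 counts in all 7 libraries, where a floor of 3 counts in the smallest library allows up to 0.179 CPM. Fermt2, Parva, Madcam1 and Vtn had mean levels under 0.1 CPM in both groups, so Fermt3 was the only kindlin gene measured above that level. Icam4, a ligand gene of red cells, stood at 0 counts in libraries where all 10 erythroid markers were called higher in KO. The opposite-strand gene Gm47079, with at most 7 counts in a library, overlaps Icam4. How reads over both were counted is not stated, so 0 counts need not mean that Icam4 was absent.

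Itgad, the αD chain of splenic macrophages, differed widely between libraries of the same group, at 14.0, 11.3, 23.2 and 3.64 CPM in KO and 14.6, 39.3 and 20.9 CPM in WT libraries. Vcam1, also expressed by those macrophages, had 163, 90.3, 127 and 31.1 CPM in KO and 68.0, 190 and 83.9 CPM in WT libraries. KO replicate 4 was the lowest library and WT replicate 2 the highest for both genes.

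Plasma cell markers summed to 990 to 3033 CPM in KO and 1320 to 2501 CPM in WT libraries. Monocyte and macrophage markers, Vcam1 among them, summed to 7085 to 11750 CPM in KO and 4940 to 8336 CPM in WT libraries. Dendritic cell markers summed to 188.7 to 261.2 CPM in KO and 171.6 to 213.9 CPM in WT libraries. Natural killer markers summed to 61.3 to 107.6 CPM in KO and 69.9 to 146.6 CPM in WT libraries. The sums of these 4 lists overlapped between the groups, but single markers of each list were called. In the plasma cell list 1 of 6 was lower in KO, and in the natural killer list 1 of 6 was lower. In the monocyte and macrophage list 2 of 10 were higher and 1 lower, and in the dendritic cell list 2 of 8 were higher and 1 lower. Over all tested genes 15.5% were called. The stroma and endothelium sum, mostly Cr2 and Pecam1, did not overlap between the groups, but only 1 of 6 tested markers was called, lower in KO. This list shares Cr2 with the B cell list, and its Ccl21a was at 0 in all libraries.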
